A study of Mus musculus with 10 samples.

Results

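The genes described are nuclear-encoded subunits of the mitochondrial respiratory chain and ATP synthase, chosen by name. The rule takes every non-control probe whose gene name begins with Nduf followed by a, b, c, s or v. It also takes Sdha, Sdhb, Sdhc and Sdhd, and names that begin with Uqcr, with Cox and a digit from 4 to 8, or with Atp5. Subunits with other names, such as Cyc1 of complex III, are left out. The rule took 146 of 56605 probes and 95 of 25160 named genes. Of these, 86 encode subunits: 37 of complex I, 4 of complex II, 8 of complex III, 20 of complex IV and 17 of complex V. The same names also bring in 8 assembly factors of complex I (Ndufaf1 to Ndufaf8) and 1 non-coding gene, Ndufa11b.

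The respiratory chain passes electrons from NADH (complex I) and succinate (complex II) through complex III to oxygen at complex IV, and complex V uses the resulting proton gradient to make ATP. Core subunits carry the catalysis and accessory subunits surround them; several complex IV subunits exist as a ubiquitous form and a form particular to muscle, testis or other tissues. Mature absorptive cells of the colon surface are rich in mitochondria and oxidise butyrate.

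RNA was hybridised to 10 Agilent 2-colour arrays. In whole colon, 2 KO mice were set against 2 WT mice in 2 pairs, each pair on 2 arrays with the dyes exchanged; the males carried Axin2CreERT2, a tamoxifen-inducible recombinase active in Axin2-expressing cells, with Trp53 fl/fl in the KO, and all received tamoxifen and 2% dextran sodium sulfate (DSS, which injures the epithelium) for 5 to 7 days, with tissue taken 2 months after DSS. Colon organoids, epithelial cultures from VillinCreERT2 mice with Trp53 fl/fl alleles, gave 3 groups of 2 samples on 6 arrays. KOWI were KO organoids called Wnt-independent and grown without surrogate Wnt (sWnt) and without CHIR, a GSK3 inhibitor. KO organoids had received 4OH-tamoxifen (800 nM, 2 days) and were then selected with Nutlin-3A, which stops cells with p53; WT organoids were their controls. The full medium of KO and WT contained EGF at 50 ng/ml, noggin at 100 ng/ml, A83-01 at 0.5 µM and R-spondin (as conditioned medium, 25%), with sWnt at 0.328 nM and CHIR at 3 µM. Medium, adaptation to it and selection in it cannot be told apart in KOWI. Whether organoid replicates came from separate mice is not given in the sources used here, so p-values in organoids reflect the spread between cultures that may be technical repeats.

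The promoters printed here show the sequence around members that recur below: Sdha and Sdhd, the lowest members in KOWI organoids, Cox8b, a muscle-type complex IV gene, and Cox6a1, a ubiquitous one. Each is the 250 bases before the start in RefSeq, GRCm38.p6, read 5′ to 3′ on the minus strand: chr13:74350241-74350490 for Sdha, chr9:50603850-50604099 for Sdhd, chr5:115348959-115349208 for Cox6a1 and chr7:140900447-140900696 for Cox8b. Capitals mark matches to the NRF1 motif (GCGC, any 2 bases and GCGC again) and the ETS motif CCGGAAG (also on the other strand), and in Cox8b to the E-box CANNTG nearest the start.
Sdha: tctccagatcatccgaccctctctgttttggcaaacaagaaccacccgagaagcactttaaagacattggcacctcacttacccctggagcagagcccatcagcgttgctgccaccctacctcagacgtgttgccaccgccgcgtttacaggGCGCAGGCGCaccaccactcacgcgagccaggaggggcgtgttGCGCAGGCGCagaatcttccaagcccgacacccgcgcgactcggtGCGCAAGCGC
Sdhd: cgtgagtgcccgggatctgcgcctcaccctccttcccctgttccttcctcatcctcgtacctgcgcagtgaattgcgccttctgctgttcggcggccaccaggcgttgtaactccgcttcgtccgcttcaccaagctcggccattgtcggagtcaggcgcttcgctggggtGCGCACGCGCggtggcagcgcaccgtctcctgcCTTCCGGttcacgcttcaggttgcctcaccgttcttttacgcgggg
Cox6a1: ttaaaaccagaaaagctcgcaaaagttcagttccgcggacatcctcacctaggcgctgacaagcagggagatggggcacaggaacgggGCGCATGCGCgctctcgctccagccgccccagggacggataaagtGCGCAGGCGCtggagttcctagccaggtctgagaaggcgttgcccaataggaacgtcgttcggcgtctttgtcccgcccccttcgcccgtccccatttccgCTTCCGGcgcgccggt
Cox8b: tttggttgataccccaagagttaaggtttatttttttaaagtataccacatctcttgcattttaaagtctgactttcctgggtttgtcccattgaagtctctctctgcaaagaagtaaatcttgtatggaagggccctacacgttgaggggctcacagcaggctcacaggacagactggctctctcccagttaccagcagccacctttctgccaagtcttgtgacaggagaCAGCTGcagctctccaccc

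Sdha held 3 NRF1 matches, with first bases 98, 55 and 10 bases before the start. Sdhd held an NRF1 match at 79 and an ETS match at 46, and Cox6a1 NRF1 matches at 162 and 117 and an ETS match at 16. Cox8b held none of these, and its capitals begin 19 bases before the start. Promoter windows of 300 bases (250 before and 50 after the start) were found for 77 of the 95 genes, 82 windows in all. The NRF1 motif, bound by a regulator of nuclear genes for mitochondrial proteins, was in 26.8% of these windows, against 6.23% of all 32851 windows. All windows were not matched to the member windows for content of G and C, the only fixed bases of this motif. The ETS motif, bound by factors such as GABPA, was in 23.2%, against 8.86%. The hypoxia motif ACGTG was in 24.4%, against 19.6%. The E-box was in 69.5%, against 72.3%, and the MEF2 motif (CTA, any 4 bases and TAG) in 2.44%, against 3.69%; the E-box and MEF2 motifs were added after the data were seen. Both strands were searched, an E-box with C and G in its middle also holds the hypoxia motif, and a match is not a known site.

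Most of these transcripts were bright on the arrays. On the log2 intensity scale the median over the 95 genes was 16.4 in tissue and 15.1 in organoids, against 8.81 and 8.34 over all genes. In each experiment 76 of the 95 lay over 14, where only 15.0% of all genes lay in tissue and 12.2% in organoids. No spot of these genes was saturated. Ratios were narrower among bright genes of all kinds: in tissue the SD of log2 ratios was 0.44 for genes at 8 to 10 and 0.08 over 16, and for KOWI over WT 0.70 and 0.22. Small ratios of these genes are therefore given beside other genes of the same brightness.

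**Figure D1:**
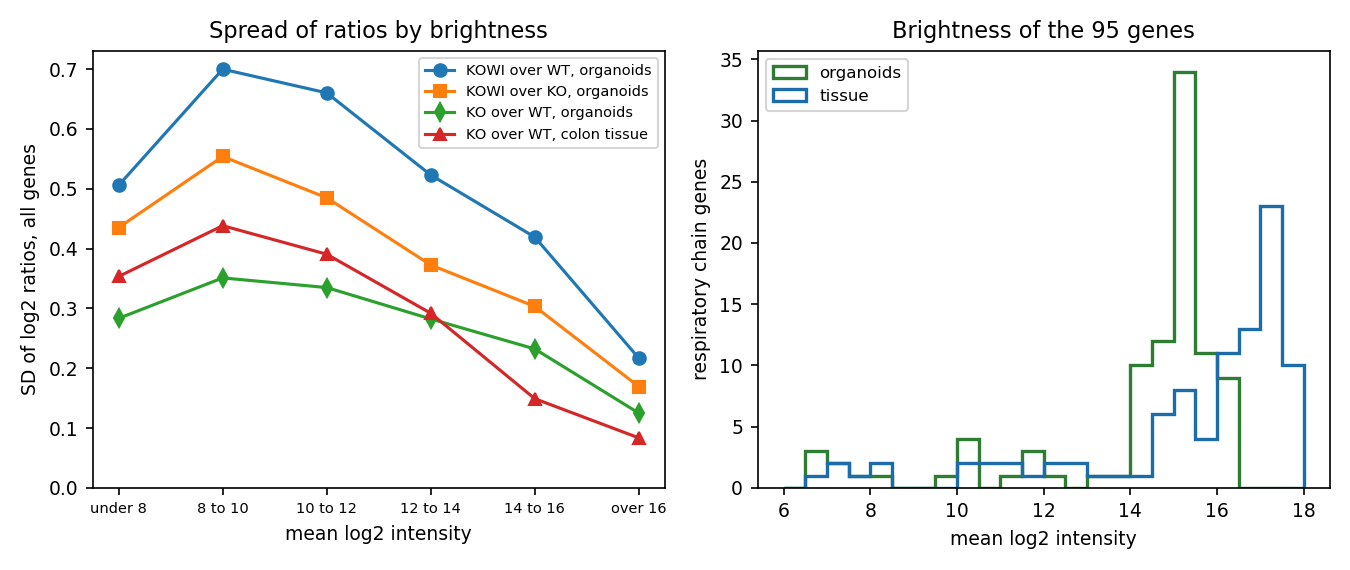
Left, SD of the log2 ratios of all genes tested (y axis) in 6 classes of mean log2 intensity (x axis), one line per comparison. Right, number of the 95 genes (y axis) by mean log2 intensity (x axis) in organoids and tissue. The SD falls to between 0.08 and 0.22 over 16, and most of the 95 genes lie over 14.

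Per channel, 44.6% to 59.1% of spots lay well above background. The targeted gene Trp53 had a log2 KO over WT of -0.46 and 0.04 in the 2 tissue pairs. In organoids its probe was well above background in 4 of 4 WT channels and in 0 of 4 KOWI and 0 of 4 KO channels; whether the probe lies in the deleted part was not checked. On the 4 arrays with KOWI, 13.7% to 16.3% of spots were marked as outliers by the scanner software, against 0.808% to 4.41% on the other arrays. Outlier spots touched 33 of the 95 genes in organoids and 3 in tissue, and 14 of the 95 could not be fitted in organoids for that reason.

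The tissue comparison asks which transcripts differ in Trp53 KO colon long after injury. Subunits of the chain lay close to WT, mostly just below it, except for a pair of muscle-type complex IV genes above it. Of the 95 genes, 91 were tested; the probes of Cox4i2, Cox7b2 and Cox8c were not well above background, nor was the Ndufaf5 probe that is brightest over all arrays, while another Ndufaf5 probe was, at 0.03. Their median log2 ratio of KO to WT was -0.03 (pair 1 gave -0.05 and pair 2 -0.01), with 19 genes above 0 and 72 below, where 50.9% of all genes tested were below 0. In 47 of 91 both pairs were below 0 (34.6% of all 13662 genes) and in 10 both were above (32.3%). limma called 0 of 13662 genes (0%) at an adjusted p of 0.05, and 0 of the 91; at an unadjusted p under 0.05 there were 2018 genes (14.8%) and 2 of the 91. Less RNA per cell and fewer cells of a type cannot be told apart in whole tissue.

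Both of those members are muscle-type forms of complex IV, the oxidase that reduces oxygen. Cox6a2, the form of heart and skeletal muscle, had log2 levels of 11.8 and 13.1 in KO mice, against 9.75 and 11.9 in WT mice. The KO mouse was the higher of each pair, although the levels of the groups overlap. In pairs 1 and 2 the KO mouse was higher by 2.01 and 1.23 on the log2 scale (mean 1.62 with SE 0.25, limma adjusted p = 0.27). Cox8b, the muscle-type form of subunit 8, had log2 levels of 12.5 and 13.7 in KO mice, against 10.9 and 12.7 in WT mice. Again each KO mouse was above its own pair, with overlap between the groups. Its log2 ratios were 1.59 and 0.96 (mean 1.28 with SE 0.20, limma adjusted p = 0.27). Neither value is a call. Both passed 0.05 when each array was centred on its median in place of loess (1.53 and 1.19), as did 899 of 13662 genes. Both also passed when arrays were taken as independent, as did 895 genes. That setting counts the 2 dye-swapped arrays of a mouse pair as replicates. In each setting they were the only 2 of 91 members to pass. With the pairing left out neither passed. With 1 mouse left out, and levels compared across pairs, Cox6a2 and Cox8b were at 2.29 and 1.87 without KO 1, 0.94 and 0.68 without KO 2, 0.55 and 0.37 without WT 1, and 2.68 and 2.19 without WT 2.

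The other alternative forms were nearer WT. Cox7a1, the muscle-type form of subunit 7a, had log2 levels of 13.9 and 14.1 in KO mice and 13.8 and 13.9 in WT mice, and a mean log2 ratio of 0.10. Ndufa4l2, a relative of Ndufa4 known to be induced by low oxygen, stood at 12.63 and 13.32 in KO mice and 12.04 and 13.33 in WT mice, with ratios of 0.59 and -0.01, so the second pair lay at WT. Cox6b2, a testis form, was at -0.07 on a probe well above background in WT but not in KO. The 6 ubiquitous forms all had mean ratios below 0 (5 of 6 with the processed signals), between -0.14 (Cox6b1) and -0.00 (Cox8a): Cox6a1 at -0.06, Cox7a2 at -0.13, Cox4i1 at -0.09 and Cox7b at -0.09.

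**Figure D2:**
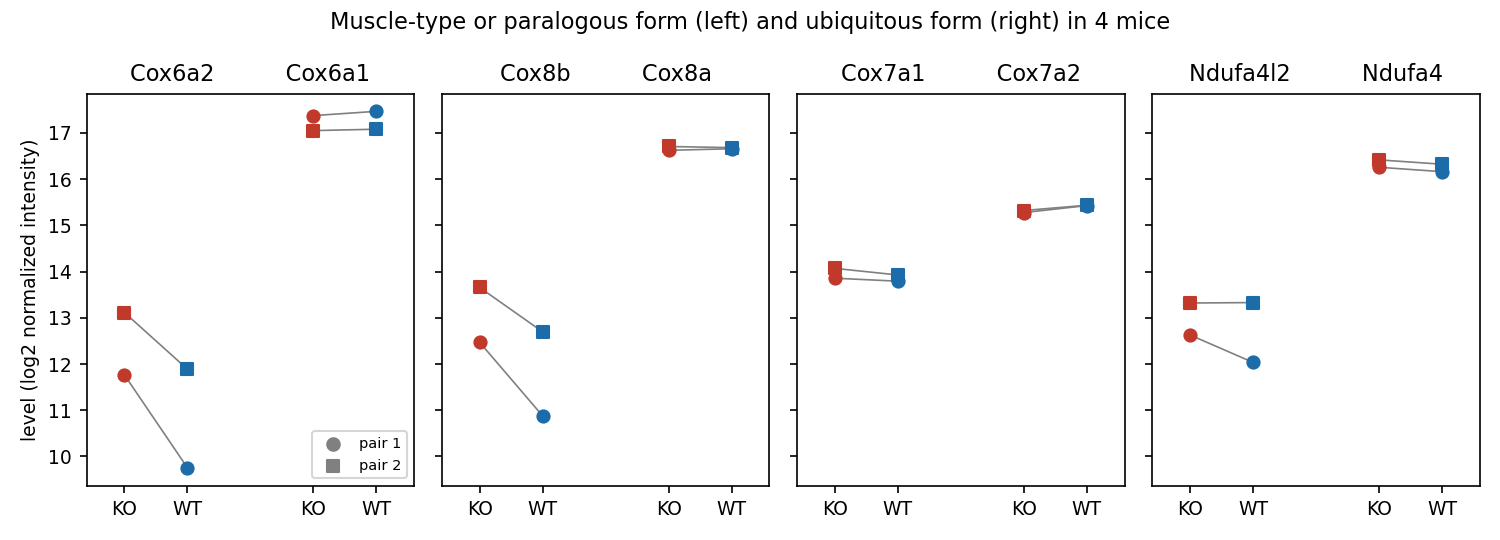
Log2 normalized intensity (y axis) in the 4 mice for 4 pairs of complex IV genes, the muscle-type or paralogous form left and the ubiquitous form right in each panel; lines join the KO and the WT mouse of a pair. Cox6a2 and Cox8b lie higher in the KO mouse of each pair, with ratios of 2.01 and 1.23 and of 1.59 and 0.96; levels of different probes are not comparable.

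Markers of skeletal muscle lay on the same side of WT as Cox6a2 and Cox8b. All 21 tested markers were above WT in both pairs (median log2 0.54, 0.17 to 1.65). Their summed log2 level was 19.3 and 19.7 in KO mice, against 18.9 and 19.5 in WT mice, and 22 of the 23 markers were well above background (Xirp2 was not). Ckmt2, the mitochondrial creatine kinase of striated muscle, was at 1.10 (1.27 and 0.93). Smooth muscle markers were above WT for 15 of 15 (median 0.14) and fibroblast markers for 11 of 11 (0.31). Of the brown fat markers 3 of 4 were above WT (median 0.43), with Ucp1, Elovl3 and Otop1 not well above background. White fat markers were above WT for 5 of 5 (median 0.50). General epithelium markers were below WT for 13 of 17 (median -0.09), colonocyte markers for 14 of 15 (-0.19) and goblet cell markers for 15 of 15 (-0.21). The part of these cell types in the subunit values was not tested.

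Complex I, which takes electrons from NADH, had a median of -0.02 over 37 genes, with 27 below WT. Its 7 core genes, which carry the electron transfer, lay between -0.09 for Ndufs8 and 0.00 for Ndufv1. The highest was Ndufb1, an accessory subunit of the membrane arm, with log2 levels of 15.0 and 14.7 in KO mice, against 14.7 and 14.6 in WT mice, and ratios of 0.24 and 0.10. Ndufb6 followed at 0.06, and the lowest were Ndufa11 at -0.14 and Ndufs8. None passed the threshold (smallest limma adjusted p = 0.44).

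Probes of Ndufb1, Cox7a1 and Sdhb show what was measured, each a 60-base stretch of coding sequence (mm9, given by the array's annotation): chr12:103207735-103207794 on the minus strand for Ndufb1, chr7:30970337-30970948 for Cox7a1 and chr4:140522514-140527081 for Sdhb, both on the plus strand. The last 2 span 612 and 4568 bases of genome and so cross exon junctions.
Ndufb1: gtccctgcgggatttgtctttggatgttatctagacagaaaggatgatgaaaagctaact
Cox7a1: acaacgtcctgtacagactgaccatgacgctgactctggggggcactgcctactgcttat
Sdhb: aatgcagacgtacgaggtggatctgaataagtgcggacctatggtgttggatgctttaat

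All 4 genes of complex II, succinate dehydrogenase, were below WT in both pairs. Sdha, the flavoprotein that oxidises succinate, had log2 levels of 15.895 and 15.950 in KO mice, against 15.907 and 15.999 in WT mice, and a mean ratio of -0.03. Sdhb, the iron-sulfur subunit, was at -0.09, and the membrane anchors Sdhc and Sdhd were at -0.09 and -0.10. Complex III, which passes electrons to cytochrome c, was below WT in both pairs for 8 of 8 genes (34.6% of all genes), from -0.10 for Uqcr10 and -0.07 for Uqcrq to -0.02 for Uqcrc1 and -0.01 for Uqcr11. These are shifts of a few percent: other genes over a log2 intensity of 14 had a median of -0.01 with 54.0% below 0 and 34.4% below 0 in both pairs, against a median of -0.03 with 62 of 76 below 0 and 41 of 76 below 0 in both pairs among the members.

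In complex IV, 12 of 17 genes were below WT (median -0.04). The lowest was Cox7c, an accessory subunit, at -0.22 (-0.27 and -0.17, limma adjusted p = 0.36), and Ndufa4, now counted in complex IV, was at 0.10 (0.10 and 0.09). In complex V, 15 of 17 were below WT (median -0.02), from Atp5d, the delta subunit, at -0.13 to Atp5g3 at 0.01. The 3 genes for the c subunit of the rotor ring, Atp5g1, Atp5g2 and Atp5g3, which encode the same mature protein, were at -0.03, -0.02 and 0.01. The assembly factors had a median of -0.01, and the non-coding Ndufa11b was at -0.24 on a probe well above background in WT but not in KO.

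**Figure D3:**
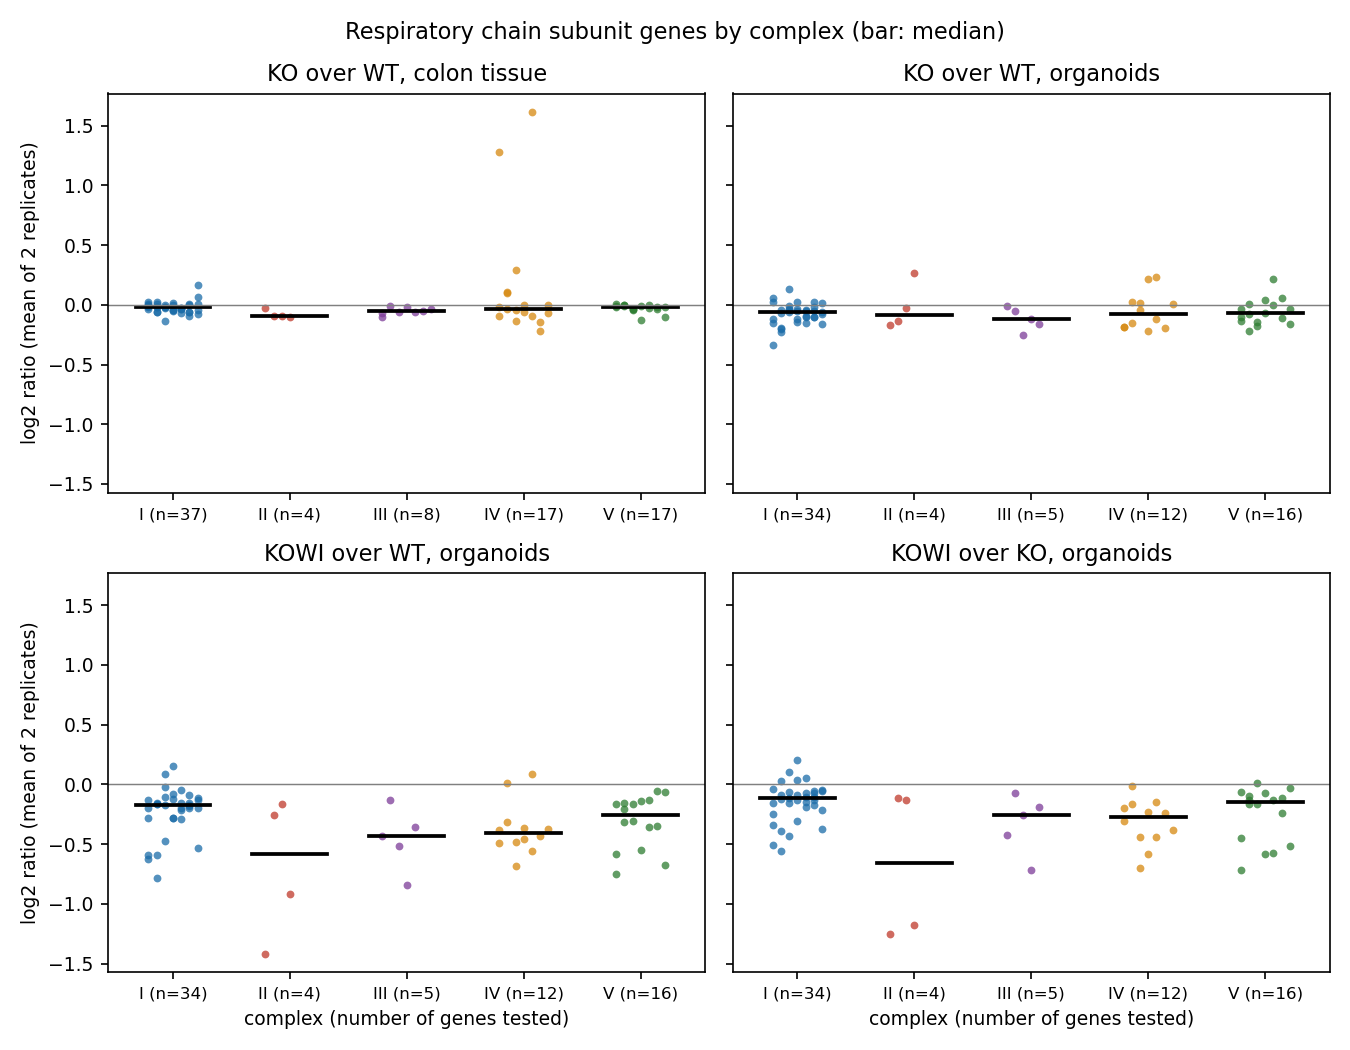
Log2 ratio (y axis, mean of 2 replicates) of each subunit gene by complex (x axis, with the number of genes tested), in the 4 comparisons; points are genes and bars medians. Cox6a2 (1.62) and Cox8b (1.28) stand above the other tissue values, and the KOWI over WT panel has its lowest points in complex II (Sdha -1.42 and Sdhd -0.92).

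In organoids in full medium the question is what loss of Trp53 does in epithelium alone, where the Nutlin-3A selection of KO cannot be told apart from it. Subunit genes lay slightly below WT in replicate 1 and near it in replicate 2. Here 76 of 95 were tested. Cox6a2, Cox7b2, Cox8b, Cox8c and Ndufa4l2 were not well above background, so the pair that stood out in tissue has no value in organoids. The 14 lost to outlier spots were Atp5j, Cox6b1, Cox6b2, Cox7a1, Ndufa8, Ndufaf1, Ndufaf3, Ndufaf7, Ndufaf8, Ndufs4, Ndufs5, Uqcrb, Uqcrc1 and Uqcrfs1, the Rieske protein.

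The median log2 KO over WT was -0.06, against 0.06 over all genes tested, with -0.13 in replicate 1 and 0.02 in replicate 2, and it was 0.09 without KO 1. Below 0 were 56 of 76 (38.8% of all genes), and below 0 in both replicates 28 of 76 (20.8%). limma called 0 of 9982 genes (0%); 544 genes (5.45%) had an unadjusted p under 0.05, and 0 of the 76. Among genes over 14 in log2 intensity, 54 of 68 members were below 0, against 48.8% of 2373 other genes, and 28 of 68 in both replicates, against 29.3%. The extremes were Ndufa1, an accessory subunit of complex I encoded on the X chromosome, at -0.34 (-0.34 and -0.33) and Sdhd at 0.26 (0.36 and 0.16). Medians by complex ran from -0.12 (complex III, 0 of 5 above WT) to -0.06 (complex I, 6 of 34 above WT).

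Sdha was at -0.17, Sdhb at -0.14 and Sdhc at -0.03 in KO over WT. In complex III, Uqcrc2 gave the lowest value, -0.25, from replicates that point opposite ways (-0.96 and 0.46). Complex IV ran from -0.22 for Cox5b and -0.19 for Cox6c to 0.21 for Cox8a and 0.23 for Ndufa4, and complex V from -0.22 for Atp5b, the beta subunit, to 0.21 for Atp5l. Uqcrc2, Sdhb, Cox5b, Cox6c and Atp5b each rest on 5 of the 6 arrays. The KO effect in tissue minus that in organoids was tested for 9091 genes, of which 0 were called, and the smallest adjusted p among 74 members was 0.42 (limma); 7 members had opposite signs in all replicates, Sdhd and Ndufb1 among them, against 17.7% of genes.

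KOWI over WT compares organoids that lack Trp53 and grow without sWnt and CHIR with WT organoids in full medium. Most subunit genes lay below WT and 1 passed the threshold: Sdha, of complex II, fell 2.68-fold, and Sdhd, Uqcrh and Ndufa6 were the next lowest without passing the threshold. Of the 76 genes, 71 were below WT and 5 above (47.8% of all genes were below), with a median log2 of -0.21 (-0.16 in replicate 1 and -0.36 in replicate 2). Both replicates were below WT for 53 of 76 (29.7% of all genes). Below WT were 65 of 68 without KOWI 1 and 51 of 69 without KOWI 2. limma called 533 of 9982 genes (5.34%), 203 of them lower (2.03%), and of the members 1 of 76, lower. With the authors' deposited table of log2 ratios 71 of 258 calls were lower. An unadjusted p under 0.05 with a lower value was found for 10 of 76, against 9.15% of all genes.

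Members of the same brightness as other genes still lay lower. Over 14 in log2 intensity, 65 of 68 members were below 0 with a median of -0.21, against 61.7% and -0.05 for 2373 other genes. Below 0 in both replicates were 49 of 68, against 35.1%. The 14 genes lost to outlier spots lay from -1.19 to 0.10 when those spots were kept, 13 of them below 0.

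Complex II held both the lowest value and small ones. Sdha stood at -0.49 and -1.29 in KOWI, 0.37 and 0.36 in KO and 0.67 and 0.39 in WT, in log2 units around the mean of the 6 samples. Both KOWI samples lie far below all 4 others, and KOWI 2 below KOWI 1. The log2 ratio to WT was -1.16 and -1.68 (mean -1.42, SE 0.23, limma adjusted p = 0.036). The call was lost in 11 of 15 alternatives, with values between -1.75 and -0.89 over all 15 and limma adjusted p up to 0.18 (median centring). Among the 11 are fits that leave 1 sample in a group, where a lost call says little about 1 gene. Without KOWI 2, KO 2, WT 1 and WT 2 the values were -1.09, -1.43, -1.48 and -1.35. The other Sdha probe measured in organoids, much dimmer (log2 intensity 7.54, against 14.2), gave -0.36.

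Sdhd, a membrane anchor of complex II, stood at -0.27 and -1.13 in KOWI, 0.63 and 0.33 in KO and 0.27 and 0.17 in WT. The KOWI samples were again the lowest 2, with a wide gap between them. Its mean log2 ratio to WT was -0.92 (-0.53 and -1.30, SE 0.23, limma adjusted p = 0.090). Sdhc, the other anchor, was at -0.16 (0.03 and -0.35). Sdhb was at -0.25 (0.04 and -0.55) on its brighter probe, from 5 of 6 arrays, and at -0.87 on its dimmer one, which also lies over 14; with arrays centred on their medians the brighter probe gave 0.10.

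In complex III, 5 of 5 tested genes were below WT in both replicates (median -0.43). Uqcrh, the hinge protein next to cytochrome c1, stood at -0.72 and -0.32 in KOWI, 0.11 and 0.29 in KO and 0.25 and 0.38 in WT. Here KOWI 1 was the lower sample, and the ratio to WT was -0.97 and -0.71 (mean -0.84, SE 0.17, limma adjusted p = 0.056). Uqcrc2, a core-structure protein of the complex, was at -0.51 on 5 arrays, but its KO and WT samples overlap KOWI. Uqcr10 was at -0.43 on 5 arrays, Uqcrq at -0.36 and Uqcr11 at -0.13.

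Complex I was the least shifted, with a median of -0.17 and 32 of 34 below WT. Ndufa6, an accessory subunit of the LYR family, stood at -0.42 and -0.47 in KOWI, 0.07 and 0.15 in KO and 0.32 and 0.36 in WT. Its replicates nearly coincide within each group and the 3 groups do not overlap. The ratio to WT was -0.74 and -0.83 (mean -0.79, SE 0.16, limma adjusted p = 0.057). Ndufs6 was at -0.62 (-0.31 and -0.94), Ndufa1 at -0.59 and Ndufb9 at -0.59. The 7 core genes lay between -0.29 for Ndufv1 and -0.02 for Ndufs8, all below WT, 4 of 7 with median centring. Ndufa12, at 0.15 on 5 arrays, and Ndufa7, at 0.09, were the only complex I subunits above WT, and the assembly factor Ndufaf6 was the highest member at 0.39 (0.24 and 0.55, limma adjusted p = 0.25).

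**Figure D4:**
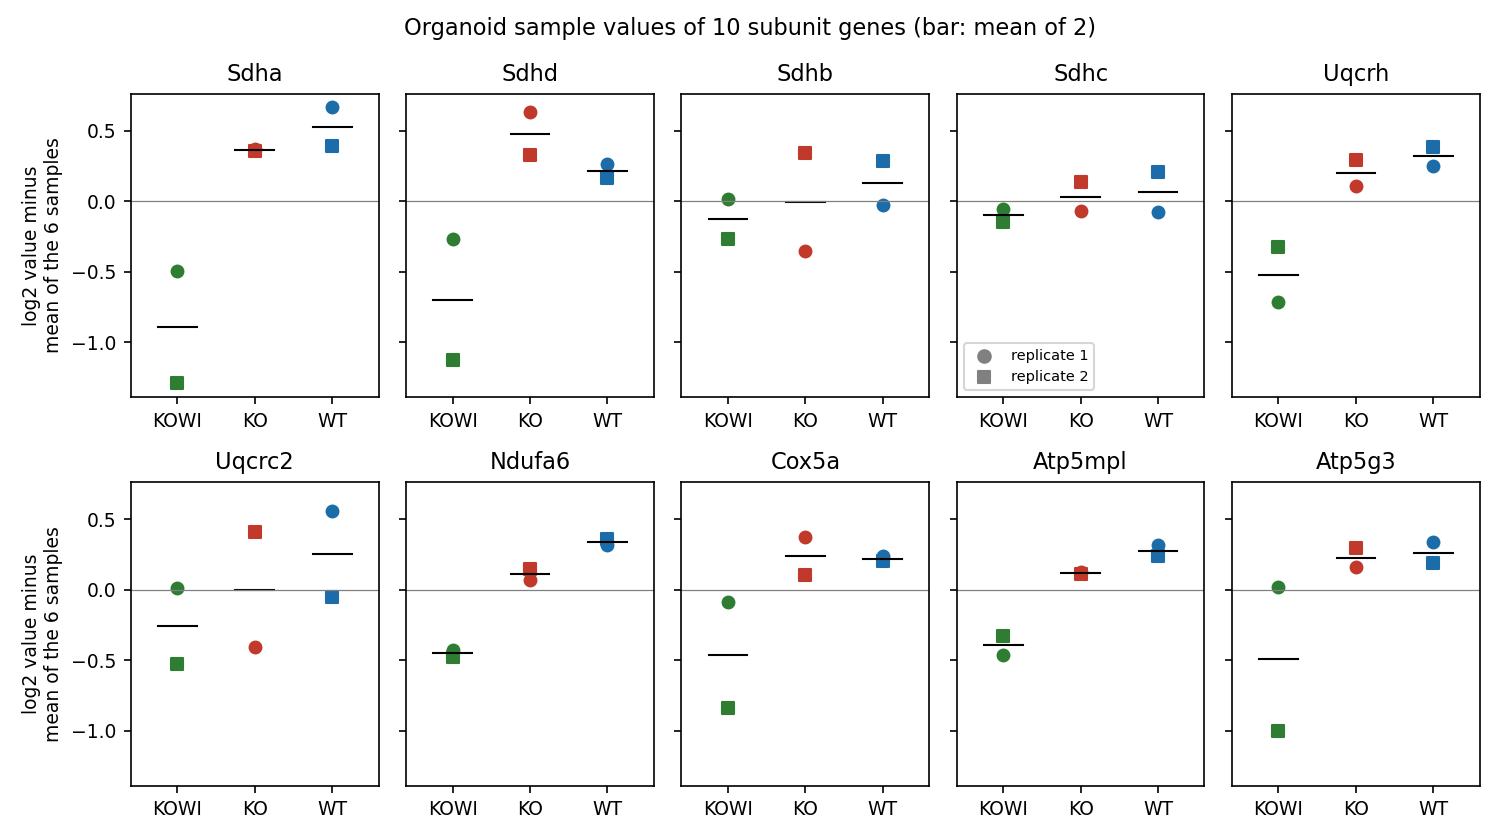
Log2 value minus the mean of the 6 organoid samples (y axis) for 10 subunit genes in KOWI, KO and WT samples (x axis); circles are replicate 1, squares replicate 2 and bars the mean of 2. Sdha lies at -0.49 and -1.29 in KOWI, against 0.36 to 0.67 in the other 4 samples, while Sdhc spans only -0.14 to 0.21.

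Of 12 tested genes of complex IV, 10 were below WT in both replicates (median -0.41). Cox5a, a subunit facing the matrix, stood at -0.09 and -0.84 in KOWI, 0.38 and 0.10 in KO and 0.24 and 0.20 in WT, a mean ratio of -0.68 (SE 0.22, limma adjusted p = 0.15). Both KOWI samples are the lowest, and most of the distance is in KOWI 2. The 5 tested ubiquitous forms lay between -0.56 (Cox6a1, -0.28 and -0.84) and -0.32 (Cox7b), with Cox4i1 at -0.49, Cox7a2 at -0.37 on 5 arrays and Cox8a at -0.37. Ndufa4 at 0.09 and Cox4i2, a form of lung and other tissues, at 0.01 were the 2 genes above WT.

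In complex V, 16 of 16 were below WT (13 of 16 with median centring), with a median of -0.26, though only 10 in both replicates. Atp5g3 stood at 0.02 and -1.003 in KOWI, 0.16 and 0.30 in KO and 0.34 and 0.19 in WT, so KOWI 2 carries most of its ratio of -0.75 (-0.32 and -1.19, limma adjusted p = 0.22), which was -0.27 without that sample. Atp5g1 was at -0.35 on 5 arrays and Atp5g2 at -0.06. Atp5mpl, a small membrane subunit, stood at -0.46 and -0.33 in KOWI, 0.12 and 0.11 in KO and 0.32 and 0.24 in WT. Its 3 groups do not overlap, and its ratio was -0.67 (-0.78 and -0.57, SE 0.17, limma adjusted p = 0.084). The alpha subunit Atp5a1 was at -0.17 on its brighter probe and -0.70 on its dimmer one, and the beta subunit Atp5b at -0.31, each from 5 arrays on the brighter probe. The probe of Atp5g2 is printed on 10 spots of each array. The SD between spots was 0.026 to 0.11 for the scanner software's ratios on the log2 scale, not for the loess ratios.

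KOWI over KO compares Trp53-deleted organoids without sWnt and CHIR with those in full medium, where medium, adaptation and selection cannot be told apart. It shares the KOWI samples with the comparison to WT, so its values are a second view of the same 2 samples. Of 76 members 69 were below KO (55.6% of all genes), with a median of -0.16, and 38 in both replicates (29.3%). limma called 41 of 9982 genes (0.411%) and none of the 76; an unadjusted p under 0.05 with a lower value was found for 10 of the 76, against 7.25% of all genes. Sdha was at -1.26 (-0.86 and -1.65, limma adjusted p = 0.090) and Sdhd at -1.18 (-0.90 and -1.46, limma adjusted p = 0.10), followed by Uqcrh and Atp5g3 at -0.72 and Cox5a at -0.70. In complex I the lowest was Ndufa6 at -0.56 and the highest Ndufa12 at 0.20. Over 14 in log2 intensity 62 of 68 members were below KO with a median of -0.16, against 70.4% of other genes with a median of -0.06. In both replicates 33 of 68 were below KO, against 29.2%.

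The 2 KOWI samples were not alike. Medians over the 76 genes were -0.05 and -0.33 in KOWI 1 and 2, -0.02 and 0.11 in KO and 0.14 and 0.10 in WT. Only KOWI 2 lies clearly apart; KOWI 1 is near KO 1. The median of KOWI over KO was accordingly -0.02 in replicate 1 and -0.44 in replicate 2. All replicates numbered 1 carried Cy3 and all numbered 2 carried Cy5, and the 2 factors cannot be told apart. On single arrays, which cross replicate numbers, the median was -0.50 for KOWI 2 over WT 1 (67 of 72 genes below 0) and -0.16 for KOWI 1 over WT 2 (53 of 71). It was -0.29 for KOWI 2 over KO 1 (59 of 70) and -0.21 for KOWI 1 over KO 2 (58 of 74). For KO 2 over WT 1 it was -0.05 (48 of 76), and for KO 1 over WT 2 -0.16 (59 of 76). Without KOWI 1 the median of KOWI over WT was -0.43.

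**Figure D5:**
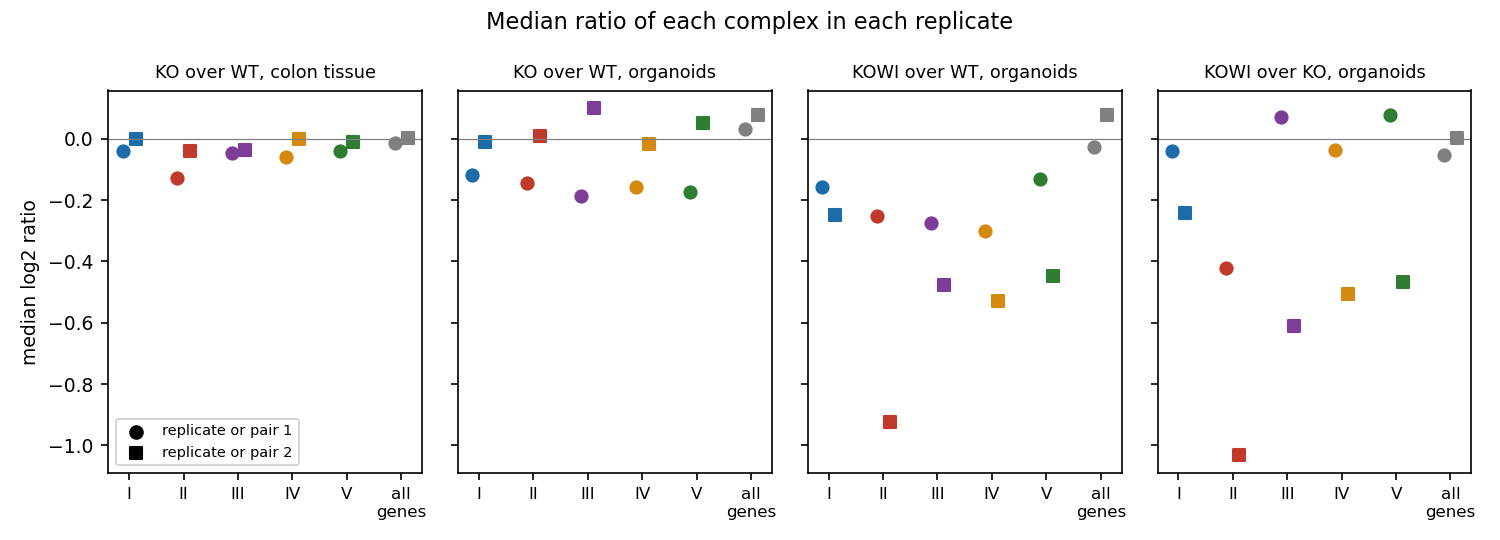
Median log2 ratio (y axis) of the subunit genes of each complex and of all genes tested (x axis) in each replicate or mouse pair of the 4 comparisons. For KOWI over WT every complex is below 0 in both replicates, complex II at -0.25 and -0.93; for KO over WT in organoids replicates 1 and 2 lie apart.

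Genes with several probes, set side by side after the data were seen, showed how far the ratio varies with the probe. For KOWI over WT, 19 members had more than 1 well-measured probe, and the brightest and dimmest had the same sign in 18; the dimmer one had the larger ratio in 10. Besides Sdha, Sdhb and Atp5a1, the widest gaps were Ndufab1, the mitochondrial acyl carrier protein, at -0.04 and -0.64, Atp5g3 at -0.75 and -0.25, and Ndufaf5 at -0.30 and 0.16, each brighter probe first. In tissue 28 members had such a pair, with the same sign in 17 and the larger ratio on the dimmer probe in 18.

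For 3 related genes outside the name rule, KOWI over WT was -0.84 for Cycs (cytochrome c, limma adjusted p = 0.12) and -0.80 for Atpif1 (an ATP synthase inhibitor, limma adjusted p = 0.054). It was -0.15 for Cyc1 (cytochrome c1, a complex III subunit that the rule misses). Subunits encoded in mitochondrial DNA, chosen after the data were seen, were below WT for 6 of 7, with a median of -0.29, and mt-COX1 at -0.69 (-0.67 and -0.72, limma adjusted p = 0.080); in tissue 8 of them had a median of 0.00. Pyruvate dehydrogenase and TCA cycle genes were below WT for 15 of 17 (median -0.22), and Sucla2, a succinyl-CoA ligase subunit, passed the threshold at -1.05 (SE 0.16, limma adjusted p = 0.033). Ckmt1, the ubiquitous mitochondrial creatine kinase, passed it at -1.18 (SE 0.22, limma adjusted p = 0.048), in a list of carriers with 8 of 9 below WT.

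Lists of other mitochondrial and cytosolic genes were not compared with the members by a test. Mitochondrial ribosomal proteins had a median of -0.02 with 33 of 58 below WT, and assembly factors outside the name rule -0.11 with 20 of 31 below. Cytosolic ribosomal proteins, also bright, were above WT for 67 of 73 (median 0.36), and regulators of mitochondrial biogenesis for 8 of 10 (0.19); neither list had a called gene, and the first had a median of 0.01 without KOWI 1, with 34 of 72 below WT. In the hypoxia list 11 of 14 were above WT (median 0.16), though only 4 in both replicates (replicate medians 0.50 and -0.04), and Pgk1, a glycolytic kinase, passed the threshold at 1.13 (limma adjusted p = 0.030). Of the p53-linked mitochondrial genes 6 of 8 were below WT, while Pmaip1, a pro-apoptotic BH3 protein, rose at 1.86 (limma adjusted p = 0.028). The calls of Sucla2, Ckmt1, Pgk1 and Pmaip1 were each lost with median centring. Without KOWI 1 their log2 ratios were -1.09, -1.44, 0.99 and 1.47. Without KOWI 2 the ratios were -1.03, -0.89, 1.21 and 2.20.

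Of 11 tested markers of mature colonocytes, 8 were called lower in KOWI over WT, against 2.03% of all genes. All 11 were below WT with a median of -1.77, among them the mucin Muc3 at -3.88 (limma adjusted p = 0.0065) and the water channel Aqp8 at -3.78 (limma adjusted p = 0.012). Their summed log2 level was 18.1 and 18.8 in KOWI, 19.4 and 19.3 in KO and 19.8 and 19.7 in WT, with no overlap between KOWI and the others, and 15 of 15 were well above background. The median was -1.21 over 11 markers without KOWI 1, and -2.07 over 10 markers without KOWI 2. Goblet cell markers were below WT for 11 of 13 (median -0.28, 1 called lower) and general epithelium markers for 10 of 15 (-0.14, 2 called lower). In KOWI over KO the medians were -0.92 for colonocyte, -0.95 for goblet cell and -0.08 for general epithelium markers. Of the fibroblast markers 11 of 12 were not well above background in organoids. In KO over WT the colonocyte markers were below WT for 11 of 11 (median -0.70). The goblet cell markers were above WT for 12 of 13 (median 0.54). At an unadjusted limma p under 0.05, 6 colonocyte markers were lower, against 142 of all 9982 genes. By the same rule 8 goblet cell markers were higher, against 402 of all genes. None was called in either list. The part of cell maturity in the subunit values was not tested.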

How the data were processed

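The deposited scanner output came from Agilent Feature Extraction, per the file headers, and holds for each spot the mean intensity and the median local background intensity, not normalized. Its processed intensity had been background-subtracted and dye-normalized by the authors' scanner software, and its log10 ratio runs Cy5 over Cy3, again per the file headers. A second table deposited by the authors holds log2 ratios; limma is named for it in the submitters' processing notes, without steps; its slope on the scanner ratios was 0.964 to 0.996 and its column medians -0.000875 to 0.0176, its direction Cy5 over Cy3 and its centring unknown.

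From the mean and background intensities, ratios were derived with limma 3.58.1 (R 4.3.3): background by normexp (offset 50), normalization by loess per array, with weight 0 for 3671 control spots of 62976 and for outlier spots, which were then set missing. RefSeq gave names to 35405 of 56605 probes through their accession, to 9124 through the symbol and to 25 through a synonym; 12051 had no name. The brightest probe over the 10 arrays stood for a gene, and it was tested where 1 group or more had it well above background in all its channels. In tissue the dye-swapped arrays were averaged per mouse pair and the 2 pair ratios tested against 0. In organoids the arrays, which form a loop, were fitted to 6 sample values and group was tested on these with the replicate number as a block; 1 missing array was allowed, and such values are said to rest on 5 arrays. A replicate's ratio is the difference of samples with the same number. The p-values of limma (lmFit, eBayes) were adjusted by Benjamini-Hochberg over all genes tested, with a threshold of 0.05. Precision is limited by how few arrays there are. The fits were tested on simulated data. For 1 tissue array the title and the Cy3 source name disagree on the replicate, and the title was followed.

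The members, the lists beside them and the tests were chosen with earlier results of these data known. Named members are those past the threshold, the 2 highest and 2 lowest of each complex, all of complex II, the extremes of the core genes and the alternative forms; of other lists, at most the 2 highest and 2 lowest called genes, and others are named after their values were seen. Alternatives were the processed signals, median centring, the deposited table, the mean over probes, probes under 14, saturated spots, no filter, outlier spots kept, arrays as independent, no replicate block and leaving out each sample. Some items are not reported here by name.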

Additional observations from a re-analysis of the deposited data

How the results depend on the processing

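Over 99 named values and 1363 alternatives, 1197 kept their direction and their side of the threshold, 32 passed the threshold anew, 51 lost it and 83 changed sign, the cause of which was not tested. Of the 83, 55 came from leaving out 1 sample. Only named values past the threshold could lose it, and these were all in KOWI over WT. Sdha lost it in 11 of 15 alternatives, Ckmt1 in 10 of 15, and Pgk1 and Pmaip1 in 9 of 15 each. Sucla2 lost it in 9 of 16, Aqp8 in 2 of 15 and Muc3 in 1 of 16. Leaving out saturated spots moved no call, and no spot of the 95 genes was saturated. For KO over WT in tissue the report called 0 of 13662 genes. Median centring called 899 and arrays taken as independent 895, with 2 of 91 members (Cox6a2 and Cox8b) each. The member median was -0.066 with median centring. For KO over WT in organoids, also at 0 genes, the mean over probes called 1 gene and arrays taken as independent 632, with 0 members. For KOWI over WT, against 533 genes and 1 member, 148 genes were called with the processed signals, 194 with median centring, 258 with the deposited values, 883 with the mean over probes, 245 with no filter, 6 with outlier spots kept and 3700 with arrays taken as independent. Members called were 0 with the processed signals, median centring, the deposited table, probes under 14, no filter, outlier spots kept and no replicate block. The mean over probes called 4 of 65 members (Atp5mpl, Ndufa6, Sdhb and Uqcrh), against 883 of 9420 genes. Arrays taken as independent called 27 of 76 members, against 3700 of 9982 genes. For KOWI over KO, against 41 genes and 0 members, these gave 0 genes (processed signals), 27 (median centring), 10 (deposited table) and 239 (mean over probes). No filter gave 4 and outlier spots kept 0. Arrays taken as independent gave 2266 of 9982 genes and 16 of 76 members. With 1 sample left out, genes called ran from 0 to 11 for KO over WT in organoids, from 0 to 807 for KOWI over WT and from 0 to 170 for KOWI over KO; members called ran from 0 to 2 for KOWI over WT and from 0 to 1 for KOWI over KO; and member medians ran from -0.14 to 0.089, from -0.43 to -0.16 and from -0.34 to -0.028. A lone sample is then assumed to vary like the other groups. Where KO 1 was left out the members called were Sdha and Sdhd for KOWI over WT and Sdha for KOWI over KO.

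In tissue a pair shares its arrays, and that pairing is part of the test; in organoids the replicate number marks the dye. Without the replicate block 400 genes were called for KOWI over WT and 38 for KOWI over KO, and Sdha had an adjusted p of 0.051. The Sdha call was also lost with the processed signals (-1.57, adjusted p = 0.055), median centring (-1.33, 0.18), the deposited table (-1.51, 0.058), the mean over probes (-0.89, 0.079), no filter (0.068) and outlier spots kept (0.10). Counting the subunits alone, an alternative chosen after seeing the data, moved each member median by less than the spread between replicates.

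The sign changed for these values. For KO over WT in tissue these were Atp5g3 at -0.0065, Atp5k at -0.043 and Cox8a at 0.00040 with the processed signals, Atp5g3 at -0.027, Atp5k at -0.029 and Ndufb6 at -0.0015 with median centring, Atp5g3 at -0.0098 and Atp5k at -0.046 with the deposited table, Atp5g3 at -0.070 and Atp5k at -0.0060 with the mean over probes, Atp5g1 at 0.034 and Atp5g3 at -0.15 with probes under 14. For KO over WT in organoids these were Sdhb at 0.060 and Uqcr10 at 0.17 with median centring. For KOWI over WT these were Cox4i2 at -0.034 and Ndufa4 at -0.034 with the processed signals, Atp5g2 at 0.0099, Cox4i2 at -0.0044 and Sdhb at 0.10 with median centring, Ndufa12 at -0.029 with arrays taken as independent. For KOWI over KO these were Atp5j2 at -0.064 with the processed signals, Atp5g2 at 0.0062, Cox4i2 at 0.036 and Sdhb at 0.041 with median centring, Atp5j2 at -0.042 and Cox4i2 at 0.0098 with the deposited table, Atp5j2 at -0.070 with arrays taken as independent, Atp5j2 at -0.037 with outlier spots kept. With each sample left out in turn, these values ran on both sides of 0. KO over WT in tissue gave Atp5g2 -0.056 to 0.011, Atp5g3 -0.030 to 0.046, Atp5k -0.026 to 0.027, Cox6a1 -0.25 to 0.13, Cox7a1 -0.0029 to 0.21, Cox8a -0.046 to 0.037, Ndufa4l2 -0.35 to 0.94, Ndufb6 -0.16 to 0.29, Sdha -0.076 to 0.016, Sdhb -0.22 to 0.033, Uqcr11 -0.013 to 0.0010 and Uqcrc1 -0.064 to 0.022. KO over WT in organoids gave Atp5b -0.22 to 0.15, Atp5md -0.031 to 0.058, Cox5b -0.22 to 0.030, Cox6c -0.19 to 0.088, Ndufa4 -0.060 to 0.56, Ndufaf4 -0.11 to 0.31, Ndufs8 -0.0089 to 0.23, Sdha -0.43 to 0.093, Sdhc -0.12 to 0.13, Uqcr10 -0.0089 to 0.33, Uqcr11 -0.11 to 0.0021 and Uqcrq -0.45 to 0.15. KOWI over WT gave Atp5g1 -0.35 to 0.0061, Atp5g2 -0.43 to 0.25, Cox4i2 -0.19 to 0.24, Ndufa12 -0.15 to 0.042, Ndufa4 -0.11 to 0.26 and Sdhb -0.31 to 0.14. KOWI over KO gave Atp5g2 -0.34 to 0.34, Atp5j2 -0.35 to 0.014, Cox4i2 -0.24 to 0.19, Ndufa4 -0.44 to 0.19, Sdhb -0.12 to 0.28, Sdhc -0.25 to 0.085 and Uqcrq -0.48 to 0.13.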
